A study of Mus musculus with 4 samples.

Results

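Zfp36 and Ptgs2 are 2 of the 41819 transcripts, by systematic name, on a 2-colour Agilent oligonucleotide array that measured RNA of adult mouse tissues. They were taken by their RefSeq transcripts, NM_011756.2 for Zfp36 and NM_011198.2 for Ptgs2, and each has 1 probe with 1 spot per array. The arrays hold total RNA from brain (2 samples) and thymus (2 samples) of adult C57BL/6J mice, an inbred strain with no genetic change or treatment named in the labels. In the other channel of all 4 arrays lies the same universal mouse reference RNA, a pool that the deposited readme describes as coming from 11 mouse cell lines. Cy3 labelled brain 1 and thymus 1, and Cy5 labelled brain 2 and thymus 2, so that replicate number and dye are one factor. The labels call the samples biological replicates without naming animals, so p-values measure the spread between these samples and dyes, and the small number of arrays limits every value.

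Zfp36 encodes tristetraprolin, an RNA-binding protein whose zinc fingers recognise AU-rich elements in the 3' ends of short-lived mRNAs. Once bound, it recruits enzymes that shorten the poly(A) tail, and the mRNA is degraded. Ptgs2 encodes cyclooxygenase 2, the inducible enzyme that turns arachidonic acid into the precursor of prostaglandins, and its mRNA carries AU-rich elements and is a known target of tristetraprolin. Both genes are switched on within a short time of a growth or inflammatory stimulus in many cultured cells. In brain, Ptgs2 is also made without inflammation by some excitatory neurons. In whole tissue, fewer cells of a type and less RNA per cell cannot be told apart.

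The promoters of both genes are shown as background on the 2 transcripts, and no link between these sequences and the array signals was tested. The windows are those of RefSeq on GRCm38.p6, from 250 bases before to 50 bases after the annotated start, written in the direction of transcription. Zfp36 lies on the minus strand of chromosome 7, at chr7:28379179-28379478, and Ptgs2 on the plus strand of chromosome 1, at chr1:150099781-150100080. Capitals mark matches, on either strand, to TATAAA (a core promoter element), TGACG (cyclic AMP response element half-site), CACGTG (E-box), TTGCGCAA (C/EBP palindrome) and GGGCGG (GC box), motifs chosen with both sequences in view.
Zfp36: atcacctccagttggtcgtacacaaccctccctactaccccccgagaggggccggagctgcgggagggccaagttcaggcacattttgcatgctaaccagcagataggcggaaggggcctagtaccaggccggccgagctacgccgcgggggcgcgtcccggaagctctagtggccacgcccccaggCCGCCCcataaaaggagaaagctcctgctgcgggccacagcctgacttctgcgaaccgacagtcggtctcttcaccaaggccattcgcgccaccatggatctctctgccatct
Ptgs2: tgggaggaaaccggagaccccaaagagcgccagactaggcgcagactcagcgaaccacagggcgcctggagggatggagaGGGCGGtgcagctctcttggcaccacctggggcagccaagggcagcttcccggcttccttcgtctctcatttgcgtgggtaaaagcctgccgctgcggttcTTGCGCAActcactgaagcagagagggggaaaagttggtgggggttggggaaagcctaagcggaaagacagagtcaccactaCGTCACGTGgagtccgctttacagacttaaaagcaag
The Zfp36 window holds 1 GC box, at positions -63 to -58, counted with 1 at the annotated start. The Ptgs2 window holds 1 GC box, 1 C/EBP palindrome at positions -69 to -62, and an E-box at positions 17 to 22 that overlaps a half-site, on the opposite strand, at positions 14 to 18. Among 32851 promoter windows of this length, 35.7% hold the GC box, 20.8% the half-site, 7.15% the E-box, 0.183% the C/EBP palindrome and 13.6% TATAAA, which neither gene holds. These matches describe the letters alone, and no binding was measured here.

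The share of probes that the scanner software called well above background ran from 55.7% to 97.3% over the 4 tissue channels and from 57.4% to 86.1% over the 4 reference channels. In each tissue the Cy5-labelled sample had the larger share, at 84.2% in brain 2 and 97.3% in thymus 2. Of the marker genes listed for brain, 1 of 20 has a probe with a gene symbol here, and of those listed for thymus 0 of 24. That marker is Sox9, a transcription factor of astrocytes, and its signal, as log2 relative to the 75th percentile of the sample, was 0.13 and -0.05 in the brain samples and -3.95 and -2.75 in the thymus samples. Sox9 was well above background in 2 of 2 brain samples and in 1 of 2 thymus samples, so the measured difference, brain minus thymus, of 3.39 (SE 0.41, limma adjusted p 0.000867) rests in part on a thymus reading near background. It entered the test through its brain readings alone, the tissue in which it is high, and 33.1% of tested features were called. The p-value is thus a description. Whether the thymus samples hold thymocyte markers was not tested, for want of named probes.

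Zfp36 RNA was detected in brain, in thymus and in the cell-line pool, at levels that lay close together. Its signal was well above background in all 4 tissue readings and all 4 reference readings, with no saturated and no outlier spot. Thymus had more Zfp36 signal than brain in each sample, but the difference did not pass the test. Neither tissue differed from the cell-line pool by the test.

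The processed signal of Zfp36, an intensity after background subtraction and dye normalization by the scanner software, was 2450 and 2798 in brain 1 and brain 2, against 4840 and 5065 in thymus 1 and thymus 2. The software's own error of these readings ran from 250 units in brain 1 to 507 units in thymus 2. The brain and thymus readings did not overlap, and the highest of the 4 was 2.07-fold above the lowest. How many of all features separate in this way was not counted, so the separation is not read as particular to Zfp36. In the reference channel of the same arrays the Zfp36 signal was 3040 and 3053 on the brain arrays, against 3672 and 4470 on the thymus arrays. The reference readings of the thymus arrays were thus the higher ones as well, although the RNA was the same on all arrays.

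**Figure D1:**
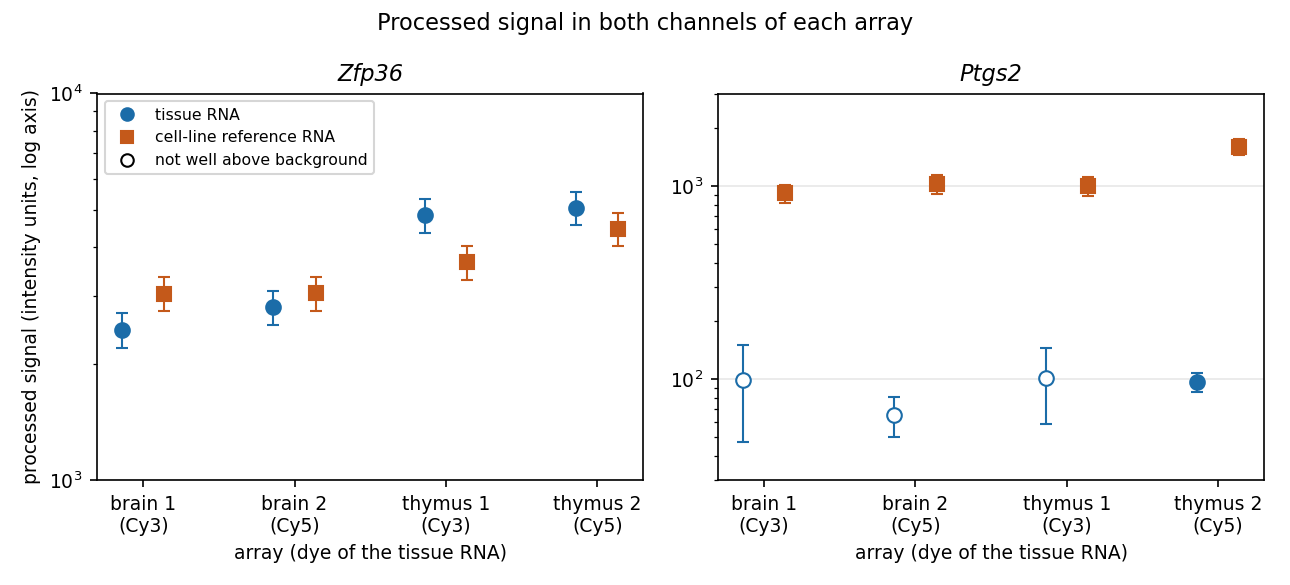
Processed signal (intensity units, log axis, with a scale of its own for each gene) of Zfp36 and Ptgs2 in the tissue RNA (blue circles) and the reference RNA (orange squares) of each array, with the scanner software's error as bars. Open symbols were not well above background. Zfp36 tissue signals lie between 2450 and 5065, close to the reference, while Ptgs2 tissue signals lie at or below 102 and its reference signals at or above 912.5.

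Relative to the 75th percentile of its channel, Zfp36 had log2 signals of 0.90 and 0.98 in brain 1 and brain 2, against 1.76 and 1.44 in thymus 1 and thymus 2. The means were 0.94 ± 0.06 in brain and 1.60 ± 0.23 in thymus (SD, n = 2 each). The difference, brain minus thymus, was -0.66 (SE 0.26), 1.58-fold in size, with a 95% interval from -1.28 to -0.04 and a limma adjusted p of 0.103. Of 27147 features tested in this comparison 33.1% were called at an adjusted p under 0.05, and 44% had a difference larger in size than that of Zfp36. Zfp36 thus lies near the middle of all features in the size of its difference. The median difference over all features was -0.11, and relative to it Zfp36 was -0.55. An exact permutation test of 2 samples against 2 cannot give a two-sided p below 0.333, so it was not used.

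On the ratio scale, each tissue reading of Zfp36 was set against the reference on its own array. The log2 ratio was -0.31 on brain 1 and -0.13 on brain 2, and 0.40 on thymus 1 and 0.18 on thymus 2, with a software error between 0.205 and 0.208 on each array. Both brain ratios lay below 0 and both thymus ratios above it, a split whose share among all features was not counted. On brain 2 and thymus 2 the ratio was smaller than the software error.

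The mean ratio of brain to reference was -0.22 ± 0.13 (SD, n = 2), with a 95% interval from -0.58 to 0.15 and a limma adjusted p of 0.285. For thymus it was 0.29 ± 0.15 (SD, n = 2), with an interval from -0.08 to 0.66 and a limma adjusted p of 0.226. Of the 27612 features tested as ratios, 44.8% were called between brain and reference and 26.6% between thymus and reference. The intervals allow a brain level up to 1.5-fold below the pool and a thymus level up to 1.58-fold above it. The reference is one common RNA, so these tests leave out its own spread. The difference of the ratios, brain minus thymus, was -0.51 (SE 0.21, limma adjusted p 0.123), where 33.6% of features were called. Its interval ran from -1.03 to 0.01.

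**Figure D2:**
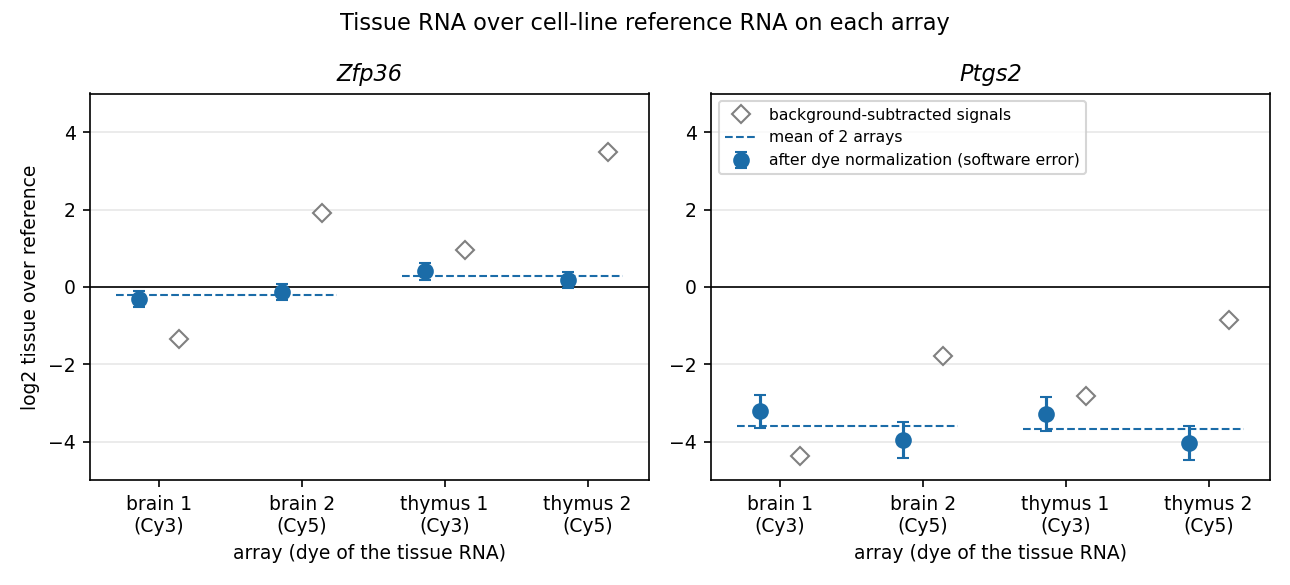
Log2 ratio of tissue RNA over reference RNA on each array for Zfp36 and Ptgs2, after dye normalization (blue circles, with the scanner software's error as bars) and from the background-subtracted signals before it (grey diamonds). Dashed lines are means of 2 arrays. After normalization the Zfp36 ratios lie between -0.31 and 0.40 and the Ptgs2 ratios between -4.04 and -3.21.

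Ptgs2 RNA was plain in the cell-line pool and at or near background in both tissues. The reference channel was well above background on all 4 arrays, so that the probe gave signal on each of them. Of the tissue samples, thymus 2 alone was well above background, and this was the sample in which 97.3% of all probes were. The Ptgs2 reading of the tissue lay below that of the cell-line pool on all 4 arrays, and the difference between brain and thymus did not pass the test.

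The processed signal of Ptgs2 was 98.5 in brain 1 and 65.3 in brain 2, against 912.5 and 1019 in the reference channels of the same arrays. It was 102 in thymus 1 and 96.9 in thymus 2, against 996.8 and 1595 in the reference. All 4 tissue readings lay under all 4 reference readings. The software's error was 51.4 units in brain 1 and 43.2 in thymus 1, a large part of the reading, and 15.3 in brain 2 and 10.6 in thymus 2. The software also gives a weaker flag, for a signal that is positive and differs from background, and all 4 tissue readings of Ptgs2 carried it.

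In the raw readings of Ptgs2, too, tissue lay below the reference on each array. The channels carry different dyes, and these readings come before dye normalization, so their order alone does not give the order of the RNA. The median pixel signal of the Ptgs2 spot was 2.24 times its local background in brain 1 and 2.01 times in brain 2, against 8.01 and 5.19 times in the reference channel of these arrays. It was 4.84 times in thymus 1 and 3.11 times in thymus 2, against 10.2 and 6.67 times in the reference. No Ptgs2 spot was saturated or marked as an outlier.

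The log2 ratio of Ptgs2 to the reference was -3.21 on brain 1, -3.96 on brain 2, -3.29 on thymus 1 and -4.04 on thymus 2. The measured brain mean was -3.59 ± 0.53 (SD, n = 2), with a limma adjusted p of 0.000274, in a comparison where 44.8% of features were called. For thymus the measured mean was -3.66 ± 0.53 (SD, n = 2), with a limma adjusted p of 0.00075, where 26.6% were called. Ptgs2 entered these tests through its reference readings alone, the channel in which it is high and which favours a difference, and the p-values are given as a description. With no filter, so that no reading decided which features were tested, the limma adjusted p was 0.0089 for brain and 0.0211 for thymus.

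Because neither brain sample was well above background, the fold for brain is given as a bound. After the array intensities were made equal in distribution, this bound was 7.85-fold, reference above brain, with the background subtraction of the scanner software. The bound sets the mean reference signal of the brain arrays, at 10.06 log2 units, against 7.08, the mean over the 2 arrays of the higher of the Ptgs2 reading and the lowest signal called well above background in brain. The measured means of these arrays were 10.06 for the reference and 6.47 for brain. Of the 2 brain readings, 1 lay above that lowest signal, so its part is a measured value and not a limit. With normexp background correction, an offset of 50 and loess, both brain readings lay above that lowest signal, and the measured fold was 4.11. The offset, added to both channels, makes ratios of dim signals smaller in size, and its part in this fold was not tested. The value of 7.85 is therefore not a minimum over the ways of processing. In thymus 1 of 2 samples was well above background, and no fold is given for it.

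**Figure D3:**
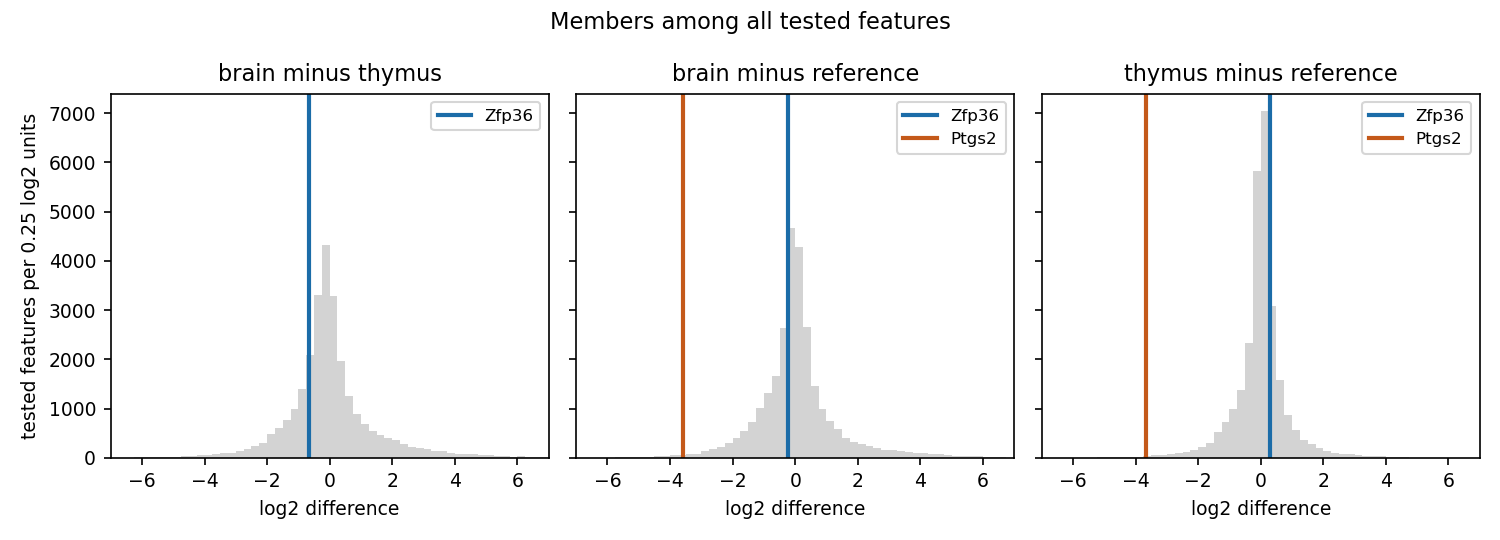
Number of tested features (vertical axis) by log2 difference (horizontal axis, in steps of 0.25) for brain minus thymus, brain minus reference and thymus minus reference. Vertical lines mark the measured values of Zfp36 (blue) and Ptgs2 (orange), with Ptgs2, whose tissue signal was at or near background, at -3.59 and -3.66 against the reference. Ptgs2 was not tested between the tissues in the tissue channel.

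Between the tissues, Ptgs2 had scaled log2 signals of -3.74 and -4.44 in brain 1 and brain 2, against -3.81 and -4.27 in thymus 1 and thymus 2. The brain and thymus readings overlapped. With 0 of 2 brain samples and 1 of 2 thymus samples well above background, Ptgs2 was not tested in the tissue channel, and no fold is given between readings so near background. As ratios to the reference, where the reference signal let it be tested, the difference, brain minus thymus, was 0.08 (SE 0.37), with a 95% interval from -0.86 to 1.01 and a limma adjusted p of 0.904. The interval leaves room for a difference of about 1 log2 unit either way.

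The Ptgs2 ratio was lower in replicate 2, labelled with Cy5, in both tissues, with a step of -0.75 in brain and of -0.75 in thymus. For Zfp36 the same step was 0.19 in brain and -0.22 in thymus. Dye and sample cannot be told apart here, and in brain the arrays differ in scan day as well. Each tissue holds 1 array of each orientation, so a dye effect that is alike in both cancels in the difference between tissues, and one that turns sign with the orientation cancels in each mean.

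The dye normalization made by the scanner software changed these ratios on every array. Before it, from background-subtracted signals, the log2 ratio of Zfp36 to the reference was -1.34 on brain 1 and 1.90 on brain 2, and 0.95 on thymus 1 and 3.50 on thymus 2. These span 4.84 log2 units, against 0.71 after it. For Ptgs2 the ratios before it were -4.36 and -1.79 on the brain arrays and -2.83 and -0.86 on the thymus arrays. Ptgs2 was thus below the reference on all 4 arrays before and after the step, while the side of the reference on which Zfp36 fell changed on brain 2. The shift was farthest on thymus 2, at -3.32 for Zfp36 and -3.18 for Ptgs2.

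The reference channel gave the difference between arrays that carry the same RNA. Its scaled log2 signal for Zfp36 averaged 1.17 ± 0.07 on the brain arrays and 1.31 ± 0.09 on the thymus arrays (SD, n = 2 each), a difference of -0.14 with a 95% interval from -0.56 to 0.29. For Ptgs2 the means were -0.49 ± 0.04 on the brain arrays and -0.37 ± 0.19 on the thymus arrays, and the difference was -0.11 with an interval from -0.56 to 0.34. Of 23042 features tested in the reference channel, 0 were called with limma, and 704 had an unadjusted p under 0.05. The limma adjusted p was 0.9998 for both genes.

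**Figure D4:**
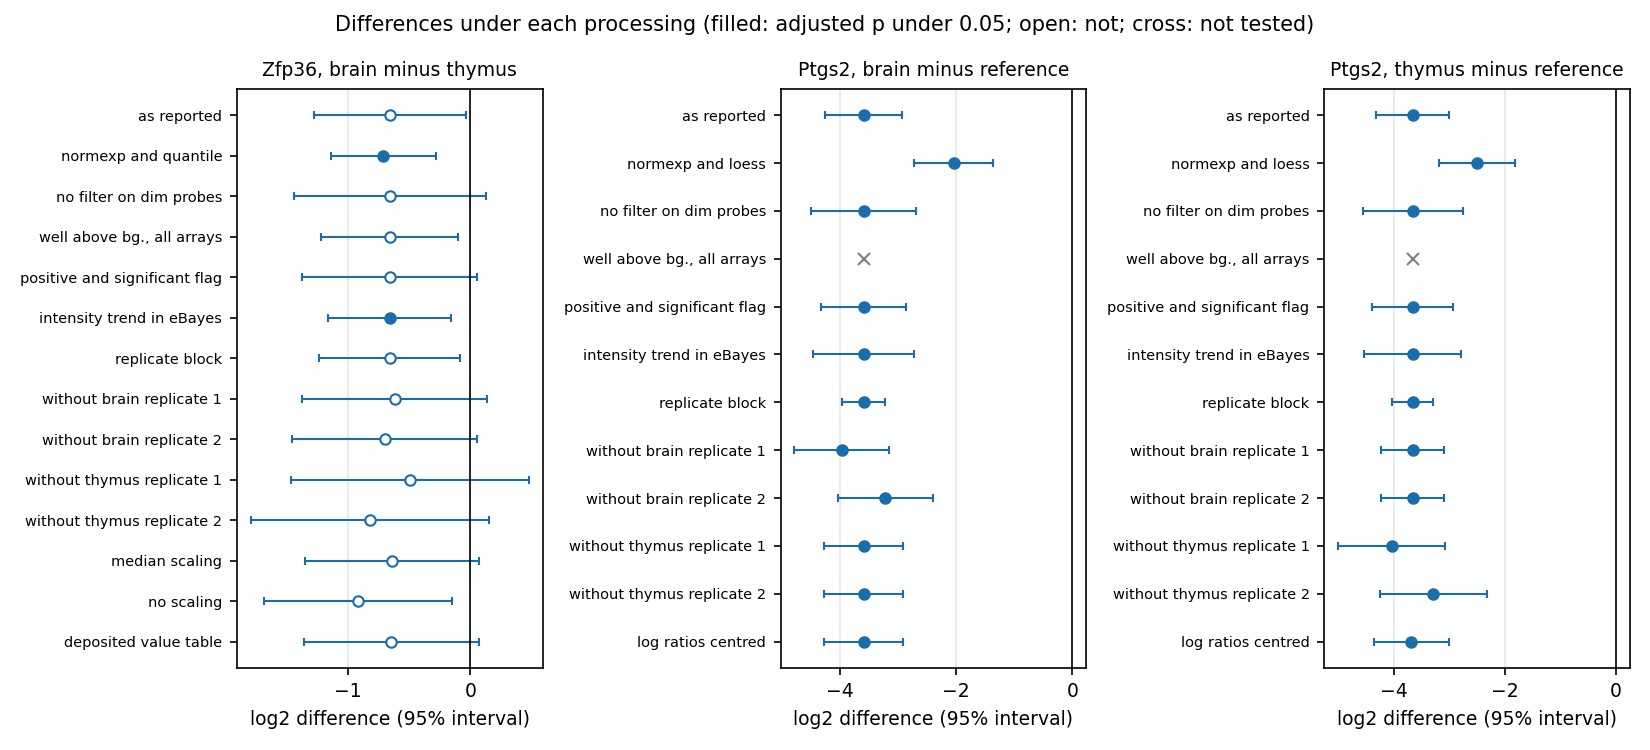
Log2 difference (horizontal axis, with 95% intervals) for Zfp36 between brain and thymus and for Ptgs2 between each tissue and the reference, as reported and under each alternative processing (rows). Filled points have an adjusted p under 0.05, open points do not, and crosses were not tested. All Zfp36 points lie between -0.92 and -0.50, with 2 of 13 alternatives filled, and the Ptgs2 points lie between -4.04 and -2.04.

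Over the 8 readings of each gene, 4 from tissue and 4 from reference, Zfp36 and Ptgs2 followed different patterns. The correlation of their scaled log2 signals was -0.03, a description over readings that share arrays. Zfp36 spanned 0.86 log2 units over these readings and Ptgs2 4.20. Among the other genes with a symbol, the readings most like those of Zfp36 were those of Xlr4b, of the X-linked lymphocyte-regulated family, at a correlation of 0.84, of Dnmt3a, a DNA methyltransferase, at 0.84, and of Nr0b1, a nuclear receptor, at 0.36. For Ptgs2 they were those of Xlr3c at 0.98 and Xlr at 0.98, both of the same X-linked family, and of Dnmt3l, a cofactor of the methyltransferases, at 0.88. Of 41530 other probes, 1804 reached the correlation of Xlr4b with Zfp36, 11645 that of Nr0b1 with Zfp36 and 178 that of Xlr3c with Ptgs2. These are thus the nearest among few named genes and not among all. Xlr3c spanned 1.12 log2 units over the readings. Because the 4 tissue readings of Ptgs2 were low and its 4 reference readings high, a correlation with Ptgs2 mostly follows that step. The X-linked family was not alike as a whole, as Xlr4b had a correlation of 0.38 with Ptgs2.

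Other genes of the pathway could not be followed by name. Of 22 listed factors that bind AU-rich elements or carry out the decay, 0 have a probe with a gene symbol here, nor does any of 20 other inducible mRNAs with such elements or of 17 enzymes and receptors of the prostaglandin pathway. Most probes on this custom array carry project identifiers that the files do not pair with genes.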

How the data were processed

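The authors made the spot intensity values with Agilent Feature Extraction 10.5.1.1 (named in the submitters' processing notes), which, per the file headers, subtracted local background and normalized the dyes within each array, without scaling between arrays. More than the local background was taken off the dim Ptgs2 spots. In brain 1 a median signal of 110 over a local background of 49 became 22.5, and in thymus 1 247 over 51 became 85. The part of this in the Ptgs2 ratios was not tested. The deposited log10 ratio is red over green, per the file headers, and the p-value per spot deposited with it was not used. It was put on the log2 scale and turned so that the tissue, whose dye the labels give, is over the reference. The authors' deposited value table holds log2 signals of the tissue channel, with a centring constant not given in the sources used here. Genome build and probe sequences are not given in the sources used here.

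Control spots and outlier spots were left out and spots of a probe averaged. Tissue-channel values were log2 processed signal minus the channel's 75th percentile. A probe entered the tissue-channel test when both samples of a tissue were well above background. It entered the ratio test on the same ground or when all 4 reference readings were well above background, and the reference-channel test only on the second ground. Tests were limma 3.58.1 in R 4.3.3 (lmFit, eBayes, two-sided, all 4 arrays), with Benjamini-Hochberg adjustment over all features and a threshold of 0.05. Bounds used Aquantile normalization. The fits were tested on simulated data. Fits with samples left out kept the same tested features and took the lone sample to vary like the other tissue. Alternatives changed background correction (normexp, offset 50, on median signals, as the files hold no mean signals), filter, scaling, prior, replicate block and samples. Of the 13 genes named through RefSeq accessions, the text gives the members and, for each, the 3 others whose 8 readings correlate best with it. The members and lists were chosen with earlier results of these data known.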

Additional observations from a re-analysis of the deposited data

Results flagged for a closer look

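The measured ratios of Zfp36 lay on opposite sides of the cell-line reference: both brain ratios were below it and both thymus ratios above it. How many of all features do so was not counted. As reported, neither tissue differed from the reference by the test (limma adjusted p 0.285 for brain and 0.226 for thymus). On brain 2 and thymus 2 the ratio was smaller than the software error. The test of the difference itself, brain minus thymus as ratios, gave -0.51 log2 units (SE 0.21) with a limma adjusted p of 0.123, so it did not pass the threshold. Over the alternatives the adjusted p ran from 0.017 to 0.505. Before dye normalization the ratio of brain 2 lay above the reference; the part of that step in the pattern was not tested. Among the 4 reference readings none stood apart by Dixon's test for either gene; the widest gap, 0.803 of the range, was that of Ptgs2 on thymus 2.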

How the results depend on the processing

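Ptgs2 lay below the reference in both tissues in each of the 10 alternatives that tested it. With no sample left out its adjusted p was under 0.05. It was not tested where all 4 arrays had to be well above background. Except with no filter or the weaker flag, it entered through its reference readings alone. Filter, trend and block keep its value. With normexp (offset 50) and loess its size was smaller, at -2.04 in brain and -2.50 in thymus. The fold for brain was 4.11 with normexp, a setting chosen after seeing the data. Leaving out a sample returns its tissue's other ratio, -3.96 or -3.21 in brain and -4.04 or -3.29 in thymus. The difference of the ratios of Ptgs2 between the tissues had no stable sign, at -0.30 to 0.45 with samples left out (negative without brain 1 or thymus 2), and its reference channel ran from -0.25 to 0.019, positive without thymus 2. In the tissue channel the value of Ptgs2 ran from -0.40 to 0.30 with samples left out.

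Zfp36 was lower in brain than in thymus in all 13 tissue-channel alternatives, from -0.92 to -0.50. Filter, trend and block cannot move its value. Leaving out a sample cannot turn its sign, as readings did not overlap. Zfp36 passed the test in 2, with normexp and quantile normalization (-0.71, adjusted p 0.0196) and an intensity trend in eBayes (-0.66, adjusted p 0.0419). In these, 39.7% and 35.4% of features were called, against 33.1%. As ratios with normexp and loess, brain minus thymus was -0.53 (adjusted p 0.017, 42.1% called against 33.6%). Thymus minus reference was 0.28 (adjusted p 0.0498, 38.3% called against 26.6%). The cause was not tested. Without scaling Zfp36 was -0.92, or -0.55 relative to the median of all features (-0.37).

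Fitting the replicate block, and with it the dye, changed no call of either gene: Zfp36 between the tissues had an adjusted p of 0.0764 and Ptgs2 2.12e-05 in brain and 9.16e-05 in thymus against the reference. Replicate differences of the tissues correlated at 0.257 across features. The number of features called fell by over 1.5 times with no filter, from more features tested (5007 against 8989 between the tissues, 4283 against 7343 for thymus and reference), and, as ratios, to 4176 and 4569 against 9289 between the tissues and to 1644 and 2052 against 7343 for thymus and reference, without thymus 1 or without thymus 2. In the reference channel 75 were called without brain 1, 126 without brain 2 and 66 with median scaling, against 0. Scan day was not run as a block: both thymus arrays share a day and each brain array has its own, and the correlation could not be estimated. Low signal over background limits every tissue value of Ptgs2.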
